A study of Mus musculus with 8 samples.

Results

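The 10 genes described here encode cell adhesion proteins of the cadherin family. They were chosen by symbol (Cdh2, Cdh4, Cdh6, Cdh7, Cdh8, Cdh9, Cdh10, Cdh11, Cdh12 and Cdh13) from a whole-brain bulk RNA-seq table that holds 24343 genes, and all 10 were found in it. All libraries were made from the whole brain of mice of the inbred strain C57BL/6NCrl, aged 56–62 days, with no treatment or mutation named, and 3 animals were used. Mice 1 and 2 gave 3 libraries each and mouse 3 gave 2, and the labels state neither the sex of each mouse nor what a library number stands for. Because libraries from 1 brain do not count as separate animals, every SD below is between mice (n = 3), and the tests between mice use the spread between libraries, which may be technical.

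Cadherins are calcium-dependent adhesion molecules whose outer repeats bind the same or a related cadherin on a neighbouring cell. The classical proteins are made with a leader segment that is cut off at a processing site, and the new end then swaps into the partner molecule by way of tryptophan: a single tryptophan in type I cadherins and a pair in type II. Inside the cell, catenins tie the tail to the actin cytoskeleton. In the brain, cadherins are known for roles in sorting cells into layers and nuclei, in the choice of synaptic partners and in the stability of synapses. Of these genes, Cdh2 (N-cadherin) and Cdh4 (R-cadherin) are type I, Cdh6 to Cdh12 are 7 type II genes, and Cdh13 (T-cadherin) is an atypical member held in the membrane by a lipid anchor, with no tail for catenins.

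The coding sequence that follows the processing site shows what divides these types. The site was taken as the end of the only run of basic residues of the kind cut by furin-like proteases in the first part of each protein, and the next 30 coding bases of the GENCODE transcript on GRCm38 are shown 5′ to 3′, with TGG, the codon of tryptophan, in capitals. Cdh2 is not shown.
Cdh4: gacTGGgtcatcccacccatcaacgttccc
Cdh6: agtTGGatgTGGaatcagttcttcctcctg
Cdh7: agcTGGgttTGGaatcagttcttcgtgctg
Cdh8: ggcTGGgttTGGaatcaaatgtttgtcctg
Cdh9: ggcTGGatgTGGaatcagttcttcctctta
Cdh10: ggcTGGatgTGGaatcagtttttcttgctg
Cdh11: ggcTGGgtcTGGaaccaattctttgtgata
Cdh12: ggcTGGgtaTGGaatcagttttttgtgctg
Cdh13: tccattgtggtgtcccccatcttgatccca

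All 7 type II genes carried TGG at codons 2 and 4 counted from the processing site. Cdh4 and Cdh2 carried it at codon 2 and not at codon 4, so that 9 of the 10 genes had the first of these codons, and Cdh13 had none among its first 10 codons. The stretches lie on the plus strand at chr2:179797560-179797589 in exon 4 of Cdh4, at chr1:109994321-109994350 in exon 2 of Cdh7, at chr15:16778257-16778286 in exon 1 of Cdh9, at chr15:18899751-18899780 in exon 2 of Cdh10, at chr15:21237843-21237872 in exon 2 of Cdh12 and at chr8:118757416-118757445 in exon 4 of Cdh13. On the minus strand they lie at chr15:13091689-13091718 in exon 2 of Cdh6, at chr8:99400765-99400794 in exon 2 of Cdh8 and at chr8:102679651-102679680 in exon 3 of Cdh11.

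Across whole coding sequences the type II genes were 60.6–71.0% identical in their 21 pairs, and Cdh6 and Cdh10 were the closest pair. Cdh2 and Cdh4 were 66.4% identical to each other, and between 48.4% and 51.0% identical to the type II genes. Cdh13 shared 47.0–48.6% with the other 9. The longest exact stretch that transcripts of any 2 of the genes had in common was 25 bases, between Cdh9 and Cdh10, and the median over 45 pairs was 16 bases. The read length was not given, so that the number of reads that fit more than 1 gene was not tested.

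Several of the genes lie next to other cadherin genes, while Cdh2 on chromosome 18 and Cdh4 on chromosome 2 are each the only one of the 10 on their chromosome. Chromosome 15 holds 4 of them in the order Cdh6, Cdh9, Cdh10 and Cdh12, with Cdh18, another type II cadherin, beyond Cdh12, and 1 other gene of the table starts in each gap between them. Chromosome 8 holds 3, and no other gene of the table starts in the 3216.5 kb between Cdh8 and Cdh11, while Cdh13 lies farther along. Cdh7 on chromosome 1 likewise has no gene start between itself and the type II gene Cdh19. By the positions in the table, on mm10 (GRCm38), the loci span 78.7 kb for Cdh9 to 1039.7 kb for Cdh13. Some neighbours differed in level and others were close. On chromosome 15, Cdh10 was at 11.6 FPKM, whereas Cdh9 before it was at 4.54 and Cdh12 after it at 2.49, followed by Cdh18 at 11.8. Cdh6 at 3.46 FPKM was close to Cdh9, as were Cdh8 at 13.0 and Cdh11 at 12.0, and Cdh7 at 4.36 and Cdh19 at 3.28.

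Levels are given as FPKM, the sequenced fragments per kilobase of transcript, scaled to the size of the library, with the transcripts of a gene summed. This unit corrects for length and allows genes to be compared. The bases read on transcripts, estimated from the deposited coverage, came to 1.31 gigabases in library 1 of mouse 2 and to at most 2.02 gigabases in any other. The tissue showed its defining markers, with the synaptic gene Snap25 at 1056 FPKM and the myelin gene Mbp at 1925 FPKM, while the liver gene Alb was listed at 0 in every library and the muscle gene Ckm averaged 0.0193 FPKM. The libraries of mouse 3 stood apart. Their FPKM totals were 384885 and 409889, above the 295541–345572 of the other 6, all 4 astrocyte markers were called higher in mouse 3 than in mice 1 and 2, and of 5 neuronal markers, all with estimates below 0, 3 were called lower. Over all genes tested, 14.1% were called higher and 11.3% lower in mouse 3. Results that rest on mouse 3 are therefore given below with these values.

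Cdh2 and Cdh13 were the most abundant of the 10 genes in whole brain, at 26.8 ± 2.95 and 23.9 ± 3.98 FPKM (SD, n = 3 mice). Next came the type II genes Cdh8 at 13.0 ± 1.15, Cdh11 at 12.0 ± 0.428 and Cdh10 at 11.6 ± 0.959 FPKM. The remaining 5 genes lay between 2.49 and 4.54 FPKM, and the ratio of the highest to the lowest gene was 10.8. Summed over the genes, the level was 106 ± 11.2 FPKM, of which Cdh2 and Cdh13 together made 47.7% (44.8–49.3% over the libraries) and the 7 type II genes 48.4%.

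**Figure D1:**
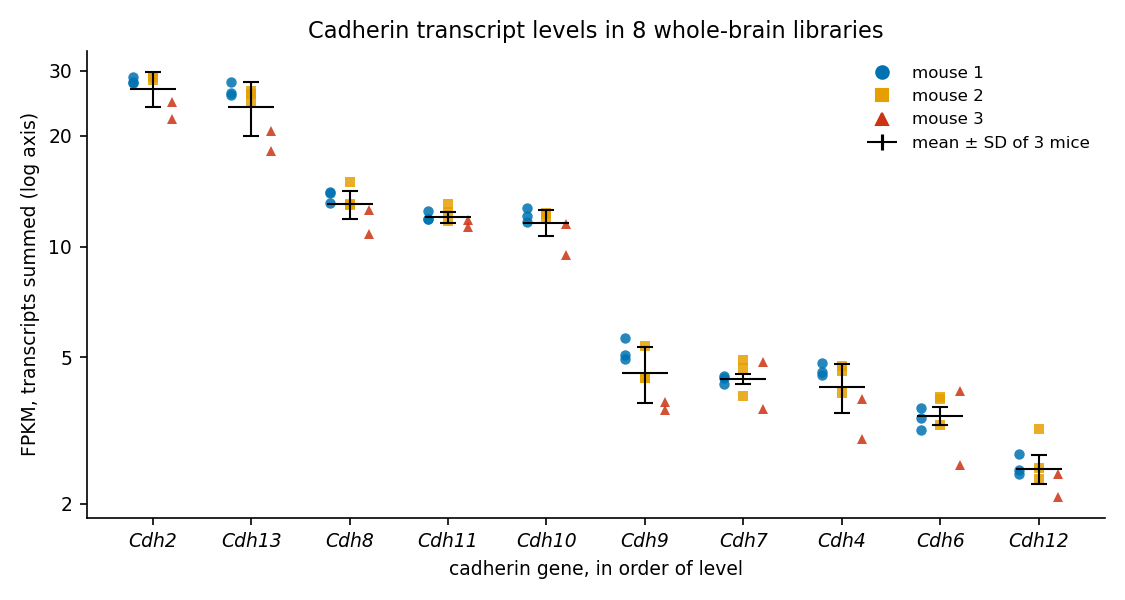
FPKM (log axis) of the 10 cadherin genes in each of 8 whole-brain libraries, coloured by mouse, with the mean and SD of 3 mice in black. Cdh2 and Cdh13 lie at the top, Cdh8, Cdh11 and Cdh10 near 12 FPKM, and the other 5 genes below 6 FPKM.

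Cdh2, N-cadherin, joins neural precursors to one another and the membranes on either side of a synapse. It read 27.8, 28.9 and 28.0 FPKM in the libraries of mouse 1, 29.1, 28.4 and 28.9 in those of mouse 2, and 24.8 and 22.1 in those of mouse 3. Both libraries of mouse 3 lay below the other 6. Over all genes with at least 1 FPKM, 80.5% were below Cdh2. Cdh4, R-cadherin, named for the retina and the nearest relative of Cdh2 here, stood at 4.17 ± 0.646 FPKM. Its libraries read 4.84, 4.47 and 4.57 FPKM in mouse 1, 3.99, 4.73 and 4.60 in mouse 2, and 3.86 and 2.99 in mouse 3, again with both libraries of mouse 3 at the bottom.

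Cdh13, which also binds the hormone adiponectin, read 26.2, 28.1 and 25.7 FPKM in mouse 1, 24.9, 25.9 and 26.5 in mouse 2, and 20.6 and 18.1 in mouse 3. The lowest library of mice 1 and 2 was above the higher of mouse 3. Cdh2 exceeded Cdh13 in 8 of 8 libraries by a mean ratio of 1.12, although the ranges of the mice overlapped.

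Among the type II genes, Cdh8 is known for guiding retinal bipolar cells to their layer. It ranged from 10.8 FPKM in library 1 of mouse 3 to 15.0 FPKM in library 3 of mouse 2, with a median of 13.1. Cdh11, first described in bone-forming cells and common in mesenchyme, had a narrow range of 11.3–13.1 FPKM. Cdh10 read 11.7, 12.7 and 12.1 FPKM in mouse 1, 12.3, 11.9 and 12.2 in mouse 2, and 11.5 and 9.49 in mouse 3. The 9.49 of library 2 of mouse 3 stood alone below a tight group of 7 libraries. The ranges of these 3 genes overlapped, so that they could not be put in order by range. Within libraries, Cdh8 was above Cdh11 in 7 of 8 and in the means of 3 of 3 mice. Cdh11 was above Cdh10 in 5 of 8 libraries and in 2 of 3 mice.

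The lower type II genes began with Cdh9, known from retinal bipolar cells and from hippocampal mossy fibre synapses. It read 5.64, 5.08 and 4.94 FPKM in mouse 1, 4.39, 4.39 and 5.36 in mouse 2, and 3.59 and 3.79 in mouse 3. Its mouse 3 libraries were the lowest. Cdh7, studied in migrating neural crest, stood at 4.36 ± 0.134 FPKM with a median library at 4.41, and its libraries of mouse 3 were 3.62 and 4.86, close to both ends of the range of 3.62–4.92. Cdh6, known from kidney epithelium and from retinal ganglion cells, was at 3.46 ± 0.194 FPKM, and here the 2 libraries of mouse 3 were the highest and the lowest of all 8, at 4.05 and 2.55 FPKM. Cdh12, a cadherin of neurons, was the lowest at 2.49 ± 0.219 FPKM (2.09–3.19). For Cdh6 and Cdh7 the small SD between mice goes with a spread within mouse 3 that spans all or nearly all of the range of the libraries.

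The order of levels had 2 gaps that no library crossed: Cdh13 was 1.84 times Cdh8, and Cdh10 was 2.56 times Cdh9. Cdh6 was 1.39 times Cdh12, with no overlap of the means of the mice and some overlap of libraries. All other neighbours in the order overlapped, so that Cdh9, Cdh7 and Cdh4 could not be ordered among themselves beyond the spread. Cdh6 overlapped Cdh4. Its mouse means (3.30–3.68 FPKM) lay below those of Cdh7 (4.24–4.51) and Cdh9 (3.69–5.22), again with some overlap of libraries. With 3 mice, a sign-flip permutation cannot go below p = 0.25, so that no test between genes was made. The coefficient of variation between mice ranged from 3.08% for Cdh7 to 17.1% for Cdh9, with a median of 8.83%, beside a median of 12.3% over the 13001 genes with at least 1 FPKM, and 7 of the 10 genes lay below that median.

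Depth and transcript models set the precision of these levels. From 13.9 to 23.2 kilobases were read per library on Cdh6, and from 213 to 316 kilobases on Cdh2. Among the 9 genes with 1 transcript in the table, the deposited confidence bounds reached at most 21.3% of the value to either side (Cdh6) and at best 4.38% (Cdh2). The GENCODE transcript of Cdh6 has 8167 bases, 3.10 times the 2632 bases used for the FPKM, and those of Cdh13 and Cdh11 are 1.65 and 1.34 times the length used. The length is the divisor of FPKM, and what a longer model would do to these 3 levels was not tested.

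Cdh8 was the only one of the 10 genes with more than 1 transcript in the table. Its 4 transcripts share most of the protein and differ at the end. NM_007667 codes for the full-length protein with 2397 coding bases before the stop codon. The others follow it for 2089 to 2126 bases (87.2–88.7% of its coding sequence) and then end with 44, 58 or 136 bases not shared with it. The shorter forms were not compared with one another. The last 30 coding bases with the stop codon in capitals show the 4 ends.
NM_007667: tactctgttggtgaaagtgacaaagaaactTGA
NM_001285914: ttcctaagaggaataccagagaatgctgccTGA
NM_001039154: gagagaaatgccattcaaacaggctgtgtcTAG
NM_001285913: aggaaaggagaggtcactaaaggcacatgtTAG

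These ends lie on the minus strand of GRCm38 at chr8:99030565-99030597 in exon 12 for NM_007667 and in exon 13 for the others, at chr8:99024911-99024943 for NM_001285914, chr8:99029850-99029882 for NM_001039154 and chr8:99024819-99024851 for NM_001285913. The full-length NM_007667 was the highest in the mean over mice, at 5.42 ± 0.984 FPKM, or 41.6% of Cdh8. NM_001285914 followed at 4.24 ± 1.45 FPKM (32.6%), NM_001039154 at 2.66 ± 1.00 (20.4%) and NM_001285913 at 0.705 ± 0.649 (5.41%).

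The share of the full-length form kept to 36.4–48.6% over the 8 libraries, whereas the shorter forms moved widely. In both libraries of mouse 3, NM_001285914 was above the full-length form, at 5.42 and 5.98 FPKM beside 3.94 and 4.64 FPKM. It made 9.25% of Cdh8 in library 1 of mouse 2 and 50.1% in library 1 of mouse 3, and NM_001039154 made 42.1% in the former and 13.5% in the latter. NM_001285913 was below 0.01 FPKM in 4 libraries, from all 3 mice, and reached 2.77 FPKM in library 3 of mouse 2. Across libraries the coefficient of variation was 17.8% for NM_007667 and 132% for NM_001285913, while that of the sum of all 4 transcripts was 9.31%. The estimate divides reads between transcripts, so that the sum is firmer than its parts.

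**Figure D2:**
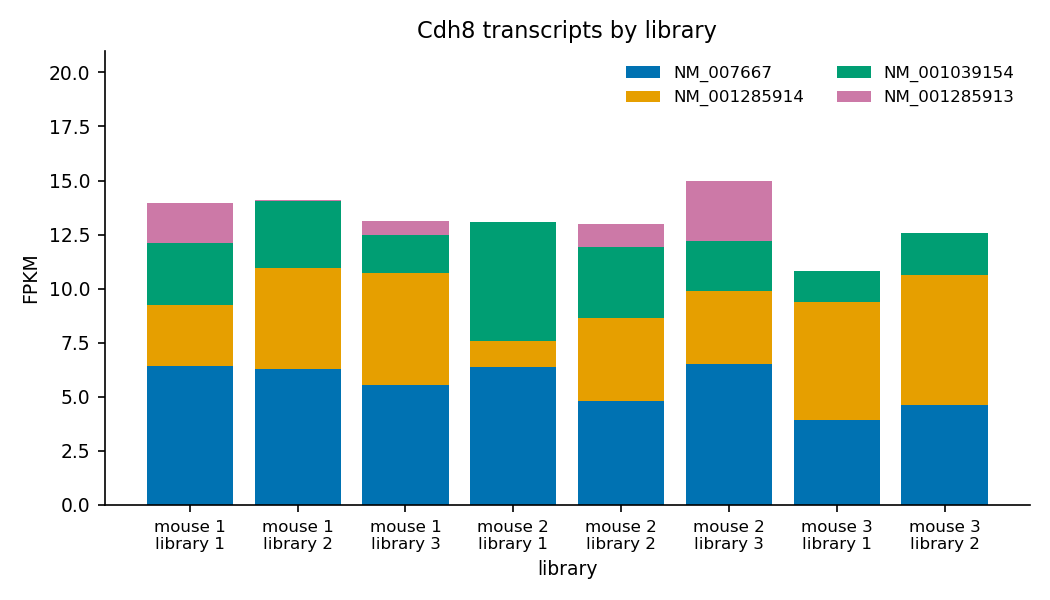
FPKM of the 4 Cdh8 transcripts, stacked, in each of the 8 libraries. The bottom segment, full-length NM_007667, stays between 3.94 and 6.54 FPKM, while the segments above it trade places from library to library.

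No condition that separates the 3 mice was named, though the sex of each is not stated. The comparison between them shows how far these levels differed between their libraries. Differences between animals and differences in preparation cannot be told apart. Cdh13 and Cdh9 differed between the mice, and both were lower in mouse 3. On the log2(FPKM + 1) scale Cdh13 fell by 0.42 (SE 0.08) in mouse 3 against the mean of mice 1 and 2, a ratio of 0.739. Its adjusted p was 0.0181 (limma F-test for any difference among the 3 mice, Benjamini-Hochberg adjustment over all genes tested). Each p-value given beside an estimate below is from this F-test and does not test the estimate itself. Cdh9 fell by 0.34 (SE 0.09), a ratio of 0.743, with an adjusted p of 0.0458 by limma. These 2 of 10 genes compare with 25.5% called among all 13001 genes tested, of which 11.3% were lower in mouse 3 and 14.1% higher, so that the share called among the cadherins was near that of all genes.

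Cdh2 and Cdh4 had estimates of −0.27 (SE 0.07) and −0.33 (SE 0.10) and missed the threshold of the F-test among the mice, with adjusted p of 0.0525 and 0.0764 by limma. For Cdh8 and Cdh10 the estimates were −0.21 and −0.20 with adjusted p of 0.210 and 0.222. The estimates of Cdh12, Cdh6, Cdh11 and Cdh7 lay between −0.15 and −0.06, with adjusted p of 0.468 to 0.866. At an unadjusted p below 0.05 there were 4 genes of 10, beside 40.8% of all genes.

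The estimates of all 10 genes were below 0 on the FPKM scale, beside 47.8% of all genes. Their median was −0.21, beside 0.02 over all genes. Those of Cdh11 and Cdh12 turned to 0.02 and 0.01 once a trend with transcript length was removed. In TPM all 10 were below 0 as well, but there the median of all genes was itself −0.24, and the share of all genes below 0 was not counted. In 6 genes (Cdh2, Cdh4, Cdh8, Cdh9, Cdh10 and Cdh13) both libraries of mouse 3 were below all 6 of the others, as in 21.7% of all genes. The sum over the 10 genes was 113 FPKM in both mouse 1 and mouse 2 and 93.5 in mouse 3. Between mice 1 and 2 none of the 10 genes was called by limma, with 0 at an unadjusted p below 0.05, and 3 of 12934 genes tested (0.0232%) were called.

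**Figure D3:**
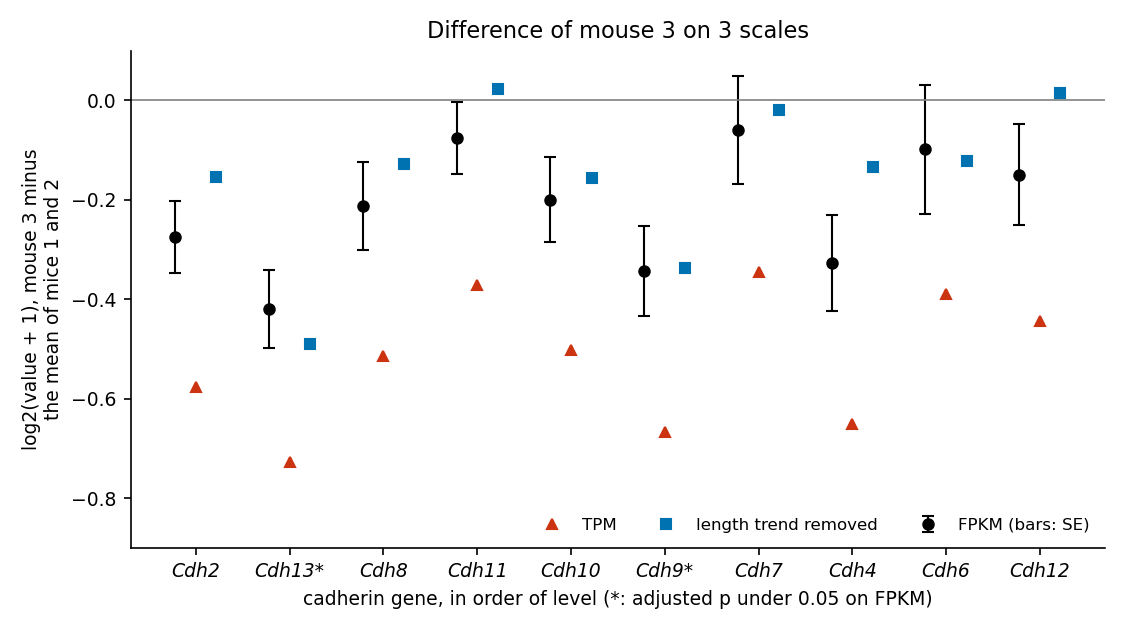
Difference of mouse 3 from the mean of mice 1 and 2 on the log2(value + 1) scale for each cadherin gene, on FPKM (black, with SE), in TPM (red) and on FPKM with the trend with transcript length removed (blue). All black and red points lie below 0, and the blue points of Cdh11 and Cdh12 lie just above it.

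The call of Cdh13 held in 7 of 8 fits that each left out 1 library and was lost without library 2 of mouse 3 (adjusted p 0.121 by limma; 0.0150 to 0.121 over the 8 fits), where no gene of the 10 and only 126 of all genes were called, and Cdh9 was called in 2 of 8 (0.0380 to 0.168). In TPM the minimum level and the pseudocount of 1 applied to TPM values, so that 14770 genes were tested in place of 13001. The median of all genes moved to −0.24, and the 10 estimates lay between −0.73 and −0.35, all below that median. Of the 10, 6 were called (Cdh2, Cdh4, Cdh8, Cdh9, Cdh10 and Cdh13), beside 35.1% of all genes. Calls over this larger set of genes were 4535 lower and 656 higher, in place of 1475 and 1835 on FPKM.

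Some other measures moved with mouse 3 too. The counts called compare with 25.5% of all genes tested, 11.3% lower and 14.1% higher in mouse 3. Summed astrocyte markers were 327–349 FPKM in the libraries of mice 1 and 2 and 498–535 in mouse 3, with 4 of 4 called higher. Summed oligodendrocyte markers were 1902–2100 and 3676–4561 FPKM, with 2 of 4 called higher. Summed neuronal markers were 1731–1875 and 1473–1567 FPKM, with 3 of 5 called lower, and 2 of 3 cortical markers were called lower as well, with sums of 26.7–30.2 and 17.5–19.7 FPKM. The summed endothelial markers were 32.8–44.9 and 51.6–54.8 FPKM and the cerebellar ones 142–167 and 178–293 FPKM, with none called in either list by limma and 1 gene in each at an unadjusted p below 0.05. Thalamic markers summed to 46.6–51.2 and 37.8–42.1 FPKM, with 1 of 3 called lower, and striatal markers to 33.6–37.4 and 23.1–32.6 FPKM, with none of 3 called and 1 at an unadjusted p below 0.05. No marker was called for oligodendrocyte precursors (3 tested), pericytes and smooth muscle (4), leptomeningeal fibroblasts (5), hippocampus (3) or hindbrain (2). Microglia and olfactory bulb each had 1 of 3 called higher, and choroid plexus had 1 of 5 called lower. In bulk tissue, fewer cells of a type and less RNA per cell cannot be told apart. The difference also varied with the length of the transcript, with medians of 0.23 for genes below 2500 bases (Cdh13 among them), −0.06 from 2500 to below 5000 bases (7 of the 10) and −0.22 from 5000 bases (Cdh4 and Cdh12). The part of these measures in the cadherin differences was not tested. With the length trend removed Cdh13 was at −0.49 (adjusted p 0.0108 by limma) and Cdh9 at −0.34 (adjusted p 0.0488). They were the only 2 of the 10 called there, beside 20.2% of all genes. The trend was removed by the length used for the FPKM, which for Cdh13 is shorter than its GENCODE transcript.

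The other 9 classical and type II cadherins were less abundant in sum. Their summed level was 40.4 FPKM, beside 106 for the 10 genes above, and Cdh18 (11.8 ± 0.416 FPKM) and Cdh22 (9.63 ± 0.408 FPKM), both type II genes, were the highest. Of the 9, 7 reached 1 FPKM, and Cdh1 (E-cadherin of epithelia, 0.911 FPKM) and Cdh3 (P-cadherin, 0.171 FPKM) did not. Among the 7 tested, 1 was called between the mice, beside 25.5% of all genes. This was Cdh19, known from the Schwann cell lineage and the neighbour of Cdh7 on chromosome 1. It read 2.64, 2.97 and 3.06 FPKM in mouse 1, 3.04, 2.42 and 2.89 in mouse 2, and 4.12 and 4.17 in mouse 3, and so rose by 0.43 (SE 0.09, adjusted p 0.0239 by limma). Its direction was opposite to that of Cdh13 and Cdh9. The call was lost in TPM (0.23, adjusted p 0.369 by limma) and without library 2 of mouse 1 or either library of mouse 3 (adjusted p up to 0.143). The median difference of the 7 tested was 0.04.

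The catenins were more abundant in sum than the cadherins, at 286 FPKM over 9 genes, all above 1 FPKM. Ctnnb1, β-catenin, stood at 116 ± 6.51 FPKM. Of the 9 catenins 1 was called, beside 25.5% of all genes. This was Pkp4, a relative of p120-catenin, which was next in level at 60.9 ± 15.0 FPKM. Its libraries read 52.5, 49.6 and 53.0 FPKM in mouse 1, 50.0, 53.6 and 54.7 in mouse 2, and 75.0 and 81.3 in mouse 3, a rise of 0.57 (SE 0.08, adjusted p 0.00784 by limma) with no overlap. The call was lost in TPM (0.28, adjusted p 0.0668 by limma) and without library 2 of mouse 3 (0.51, adjusted p 0.0677). The median difference of the catenins was −0.04, and 3 of 9 had an unadjusted p below 0.05, beside 40.8% of all genes.

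Of 5 genes for the maturation and cleavage of cadherins, none was called by limma, beside 25.5% of all genes. An unadjusted p below 0.05 was seen in 1 of them, beside 40.8% of all genes, and the median difference was −0.06. Adam10, the protease that sheds the outer part of N-cadherin, was at 21.2 ± 2.68 FPKM, and Ncstn, a subunit of γ-secretase, was at 16.1 ± 0.335 FPKM. Of 7 genes for linkers and regulators of junctions, 2 were called, both lower in mouse 3, beside 25.5% of all genes called and 11.3% called lower, and the median difference was −0.38. They were Mllt4 (afadin, which links nectins to actin) at −0.38 (SE 0.10, adjusted p 0.0498 by limma) and Pvrl1 (nectin-1, a partner of afadin) at −0.43 (SE 0.11, adjusted p 0.0447). These calls held in 4 of 16 alternatives for Mllt4 and 5 of 16 for Pvrl1, and with the length trend removed the values were −0.15 and −0.29 (adjusted p 0.238 and 0.0797 by limma). Without library 2 of mouse 3 they were −0.21 and −0.25 (adjusted p 0.276 and 0.270). Celsr2, a cadherin with a 7-pass membrane part, was the highest of this list at 15.3 ± 2.96 FPKM, and its library 2 of mouse 3 read 8.39 FPKM beside 15.4 FPKM in the next lowest.

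**Figure D4:**
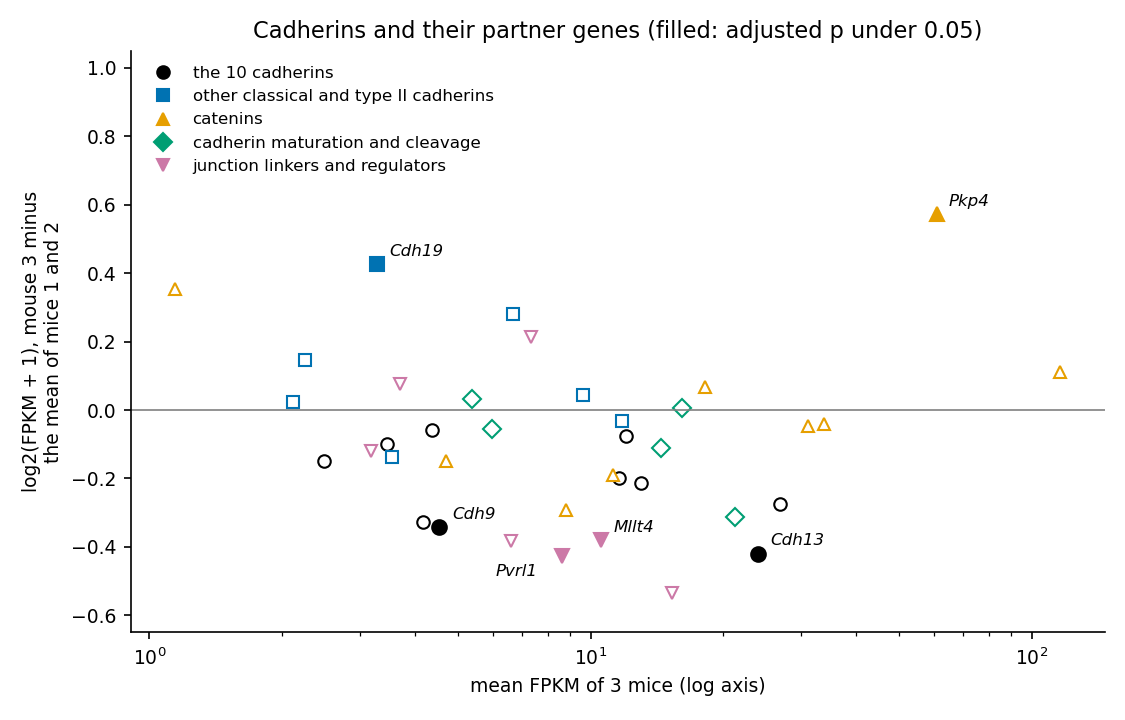
Difference of mouse 3 from the mean of mice 1 and 2 on the log2(FPKM + 1) scale against the mean FPKM (log axis) for the 10 cadherin genes and the tested genes of 4 lists, with filled symbols for an adjusted p below 0.05. Cdh13, Cdh9, Mllt4 and Pvrl1 lie below 0, and Cdh19 and Pkp4 above.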

How the data were processed

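Total RNA with an integrity score above 8 was made into libraries with a Kapa mRNA kit and sequenced on an Illumina instrument. The authors deposited FPKM for each of 34535 RefSeq transcripts in each of 8 libraries, with confidence bounds, and coverage, a signal of read depth per base that was used here for depth only. The submitters' processing notes name TopHat, Cufflinks and mm10, without versions. FPKM values are not counts, the number of reads is unknown, and no counting interval was computed.

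FPKM was summed per gene and averaged per mouse, then over mice. Differences between mice were tested with limma 3.58.1 in R 4.3.3 on log2(FPKM + 1), which understates changes of low genes, for the 13001 genes whose mean of mouse means reached 1 FPKM. The Benjamini-Hochberg adjustment ran over all of them, with a threshold of 0.05. No replicate block was used. The scripts were checked on simulated data. The status was FAIL for 8 values of 2 genes, none described here. The p-values are from the F-test for any difference among the mice. The direction was taken as mouse 3 minus the mean of mice 1 and 2. A gene called higher or lower in mouse 3 passed the F-test and took its direction from the sign of this estimate.

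Sequences and exons are from GENCODE vM21 on GRCm38, loci from the table, and 13 of 13 cadherin transcripts were matched by RefSeq name. Starts in the table count from 0, since adding 1 gave the RefSeq start for 11232 of 17927 genes with 1 transcript, against 531 without it. Identity is over global alignments of coding sequences (Biopython 1.88).

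The genes, lists and markers were chosen with earlier results of these data known. Named genes are the 10 cadherins, of each list the 2 highest and those called, and markers; Cdh1 and Cdh3 were named after their values were seen. Alternatives were a pseudocount of 0.1, other minimum levels, TPM, removal of the length trend, the highest transcript, an intensity trend, a replicate block and each library left out.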

Additional observations from a re-analysis of the deposited data

Results flagged for a closer look

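In 4 of 26 measures over the 8 libraries, a single library lay farther from the rest than Dixon's critical value for 8 samples allows, which chance passes in about 1 of 20 groups. Cdh10 read 9.49 FPKM in library 2 of mouse 3, beside 11.5 FPKM in the next lowest library. Celsr2 read 8.39 FPKM in that library, beside 15.4 FPKM. Ctnnb1 read 94.9 FPKM in library 1 of mouse 2, the library with the fewest bases read, beside 113 FPKM. The Cdh8 transcript NM_001039154 read 5.51 FPKM in that library, beside 3.32 FPKM in the next highest, while the sum of the Cdh8 transcripts did not stand apart there.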

How the results depend on the processing

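The levels of the 10 genes kept the same 5 genes on top, with Cdh2 first and Cdh13 second, under each of the 12 other averages. With the highest transcript only, Cdh8 was at 5.42 FPKM, and in TPM the levels ran from 7.32 to 78.8. Genes called between the mice were 3310 of 13001 tested on FPKM, 5191 of 14770 in TPM and 2171 of 12830 with the highest transcript. Cadherins called were 2, 6 and 1. Between mice 1 and 2 only, a comparison added after the data were seen, 3 genes and 0 cadherins were called. With each library left out, 126 to 3873 genes and 0 to 4 cadherins were called. The count of genes was 1909, 1785 and 1671 without libraries 1, 2 and 3 of mouse 1 and 126 without library 2 of mouse 3. Without each library of mouse 1 or library 2 of mouse 2, 1 cadherin was called (Cdh13), and without library 1 of mouse 3 there were 4 (Cdh2, Cdh4, Cdh10 and Cdh13). The direction of Cdh11 (0.023) and Cdh12 (0.014) was reversed with the length trend removed, that of Cdh7 without library 1 of mouse 3 (−0.23 to 0.11 over the libraries left out) and that of Cdh6 without library 2 of mouse 3 (−0.35 to 0.16), none of them called in any setting. Apart from the replicate block below, the other alternatives called 2 or 3 cadherins: Cdh2 took the place of Cdh9 with no minimum level and with a minimum of 5 FPKM, where 5 of the 10 were tested, and joined both with an intensity trend. The cause of these changes was not tested.

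Between mice, deviations of libraries with the same number correlated by 0.00276 to 0.107. Those with different numbers correlated by −0.135 to 0.0645. The labels do not say what the number stands for, and whether it pairs the mice was not settled. With the number as a replicate block, 2995 genes and 1 cadherin (Cdh13, adjusted p 0.0424 by limma) were called. Depth limits Cdh6, Cdh9, Cdh7 and Cdh12 most, with the widest deposited bounds.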
